A study of Sus scrofa with 4 samples.

Results

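The genes described here are members of the cell division program: genes of DNA replication (S phase) and of mitosis. A feature was taken when its symbol in the files was one of 40 listed names, and 33 of them were found among 31908 features. They comprise 15 S phase genes and 18 mitotic genes. CDT1, RRM2, MKI67, BUB1B, CCNA2, AURKA and NUSAP1 had no feature of that symbol. CDT1, BUB1B and NUSAP1 were located by identifier in a table of gene names and are given apart from all counts, and the other 4 are not analysed here.

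A dividing cell first licenses its replication origins with the MCM helicase and copies its DNA, then condenses its chromosomes, builds a spindle and destroys the mitotic cyclins to separate and exit. E2F and MYB family factors switch on the replication and mitotic genes in turn, so most members are transcribed mainly in cycling cells. In the young testis, Sertoli cells, which line the tubules and nurse the germ cells, divide until puberty and then stop, while germ cells divide by mitosis as spermatogonia and later enter meiosis, which uses much of the same machinery.

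The study profiled cells of pig testis (Sus scrofa) at 7, 30, 60 and 90 days of age to follow the development of the somatic niche. Each age is 1 library of droplet-based 3′ single-cell sequencing, and the labels give neither the breed nor the number of animals behind a library, nor any treatment. With 1 library per age, age, animal and library cannot be told apart, no test between ages exists, and no p-value is given. Levels are in CPM, a unit scaled for depth: raw counts of unique molecular identifiers (UMIs, one per captured RNA molecule) summed over all cells of a class in a library, relative to all UMIs of those cells. Intervals are exact 95% intervals and cover counting error only. A gene was called higher or lower when the ratio of CPM was at least 2-fold, its interval excluded no change and both sums together held at least 20 counts. The share of all measured genes called the same way is the background of each comparison.

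Of 69602 barcodes in the files, beside 86453 captured cells stated in the labels, 47969 cells were used, with 10376 to 14606 per library. Any pair of libraries shared 78 to 115 barcodes, at most 0.657% of the smaller library. Cell classes were rebuilt from marker genes after clustering and are called "like". The members and other listed cycle genes were left out of the clustering by their symbol. CDT1, BUB1B and NUSAP1, which had no symbol in the files, and cycle genes outside the lists could still be used to cluster. The 60-day library stood apart: 4543 of its cells, with a median of 1510 UMIs, formed no named class, and its Leydig-like, pericyte-like and blood endothelial-like classes held 73, 41 and 85 cells, too few for a comparison (under 100). The clusters that make up a class differed with age. The Sertoli-like class was mostly clusters 1 and 2 at 7 days, cluster 14 at 30 days, cluster 3 at 60 days and cluster 24 at 90 days. The stromal class was mostly cluster 4 at 7 days, clusters 5 and 17 at 30 days, clusters 18 and 17 at 60 days and cluster 26 at 90 days.

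**Figure D1:**
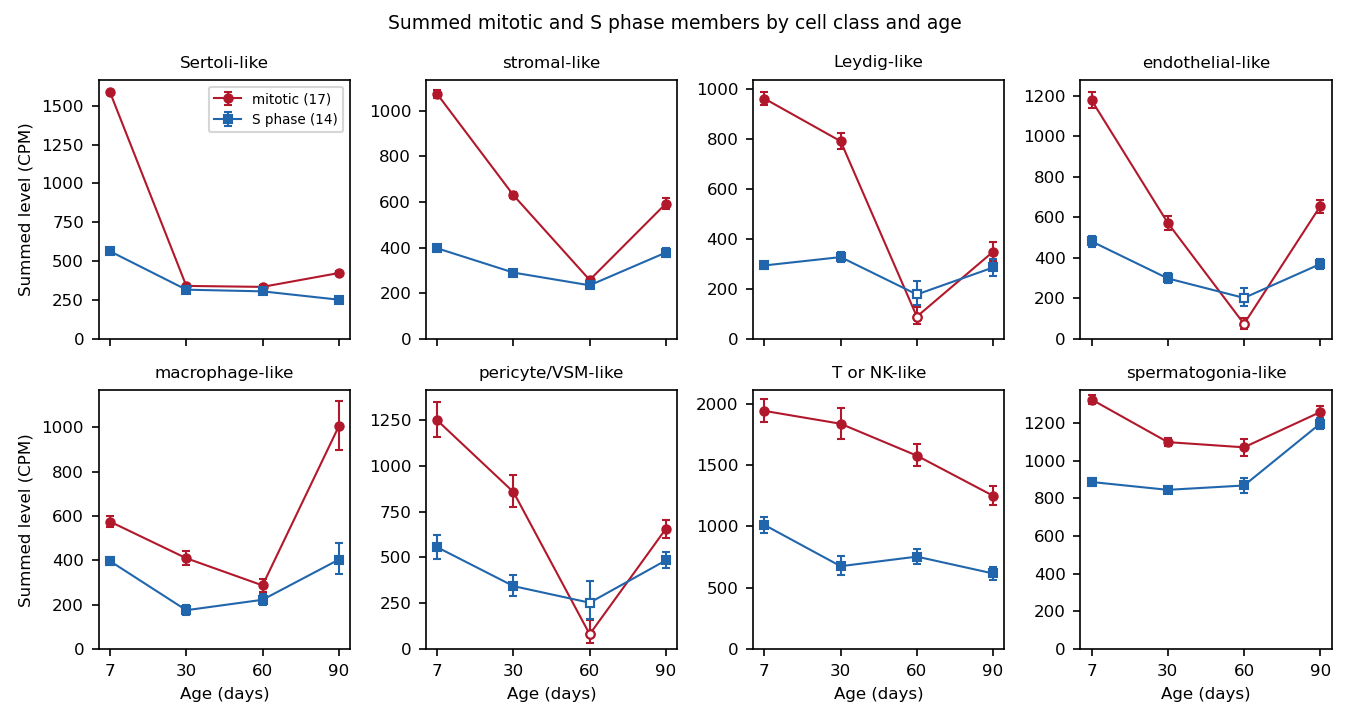
Summed CPM of 17 mitotic members (HMGB2 left out) and 14 S phase members (PCNA left out) in each class at each age, with exact 95% Poisson intervals as bars. The mitotic sum of Sertoli-like cells was 1586 at 7 days and 334 to 423 later, while spermatogonia-like cells stayed between 1071 and 1324.

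In Sertoli-like cells the mitotic program was high at 7 days and low from 30 days on. The summed mitotic level without HMGB2, a chromatin protein that is also abundant outside division, at 7, 30, 60 and 90 days was 1586 CPM (1573 to 1598), 340 (333 to 348), 334 (325 to 343) and 423 (412 to 434). The S phase level without PCNA, a sliding clamp that also serves DNA repair, was 563 CPM (556 to 571), 316 (309 to 323), 305 (297 to 314) and 252 (243 to 260) in the same order. The 7-day library thus held the highest level of both groups, and the 30- and 60-day intervals overlapped for each.

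Between 30 and 7 days, 26 of 33 members were lower in Sertoli-like cells and none was higher, against 6.62% of 16384 genes lower and 7.31% higher. All 18 mitotic members were among the 26, with a median log2 ratio of −2.25, and 8 of 15 S phase members, with a median of −1.05. The median over all genes was 0.06. Between 60 and 30 days no member was called, against 3.31% lower and 10.2% higher, and the members' median log2 ratio was −0.06. Between 90 and 7 days, 23 members were lower and none higher, against 12.6% lower and 31.4% higher. These 23 were 13 mitotic and 10 S phase members, and the median over all members was −1.71, beside 0.36 over all genes.

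Among the genes that shape chromosomes, TOP2A, the topoisomerase that untangles replicated DNA (chromosome 12, 22001300 to 22028452, build Sscrofa11.1), stood, in order of age, at 385 CPM (379 to 392), 70.5 (67.2 to 73.8), 76.1 (71.9 to 80.4) and 41.2 (37.8 to 44.8). The log2 ratio of 90 to 7 days was −3.23 (−3.35 to −3.10). HMGB2 stood at 380, 97.2, 87.3 and 89.5 CPM. Both were highest at 7 days, and no later interval of TOP2A overlapped the first.

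The centromere and checkpoint genes did not move as one group. CENPF, a kinetochore protein (chromosome 9, 128948386 to 129012241), was at 380, 67.8, 62.6 and 27.0 CPM in order of age. CENPE, the kinetochore motor, was at 120, 27.9, 23.2 and 16.3 CPM. Both were lowest at 90 days. CENPA, the histone variant that marks centromeres, was at 8.80, 1.97, 2.02 and 3.74 CPM. TTK, a checkpoint kinase, was at 17.1, 3.04, 4.77 and 9.12 CPM. BUB1, another checkpoint kinase (chromosome 3, 45585188 to 45623240), was at 20.5 (19.2 to 22.0), 3.91 (3.17 to 4.75), 3.61 (2.75 to 4.65) and 22.5 (20.03 to 25.2) CPM. BUB1 was therefore as high at 90 days as at 7 days within counting error, with a log2 ratio of 0.13 (−0.06 to 0.32). Scaling by TMM, a trimmed mean over genes, moves every log2 ratio of this comparison by −0.53 and turns the sign of that of BUB1.

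The cyclins and their kinases were lower at 30 and 60 days and partly higher again at 90 days. CCNB1, the main mitotic cyclin, was at 35.0, 6.90, 7.77 and 11.2 CPM and CCNB2 at 20.5, 4.81, 6.36 and 11.3 CPM. CDK1, the kinase they activate, was at 13.3, 3.31, 3.12 and 2.09 CPM, lowest at 90 days. PLK1, a kinase of mitotic entry and spindle assembly (chromosome 3, 22537814 to 22550901), was at 31.5 (29.8 to 33.3), 5.33 (4.47 to 6.30), 6.91 (5.70 to 8.31) and 25.5 (22.9 to 28.3) CPM. The chromosomal passenger complex, which corrects wrong spindle attachments, was lower at all 3 later ages: AURKB, its kinase, was at 80.2, 24.8, 25.7 and 19.5 CPM, BIRC5 at 64.3, 14.9, 13.7 and 21.9 CPM, and CDCA8 at 18.7, 5.40, 4.34 and 5.91 CPM.

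Spindle genes split most widely. ASPM, a spindle pole protein, was at 71.7, 13.1, 13.4 and 6.35 CPM. TPX2, which activates spindle assembly (chromosome 17, 35431271 to 35484814), was at 118 (115 to 121), 52.8 (49.99 to 55.7), 51.5 (48.1 to 55.1) and 177 (170 to 184) CPM. TPX2 was the member with the highest ratio of 90 to 7 days, at a log2 of 0.58 (0.51 to 0.65), which is under the 2-fold limit. TMM scaling moves this ratio by −0.53, so most of it depends on the scaling. Mitotic exit genes were lower at each later age than at 7 days. UBE2C, a ubiquitin-conjugating enzyme of cyclin destruction (chromosome 17, 48018403 to 48021542), was at 138 (134 to 142), 23.0 (21.2 to 25.0), 19.4 (17.4 to 21.7) and 8.97 (7.44 to 10.7) CPM. Its log2 ratio of −3.94 (−4.22 to −3.68) at 90 against 7 days was the lowest of all members. CDC20, an activator of the same ligase, was at 63.4, 11.01, 9.60 and 14.1 CPM.

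**Figure D2:**
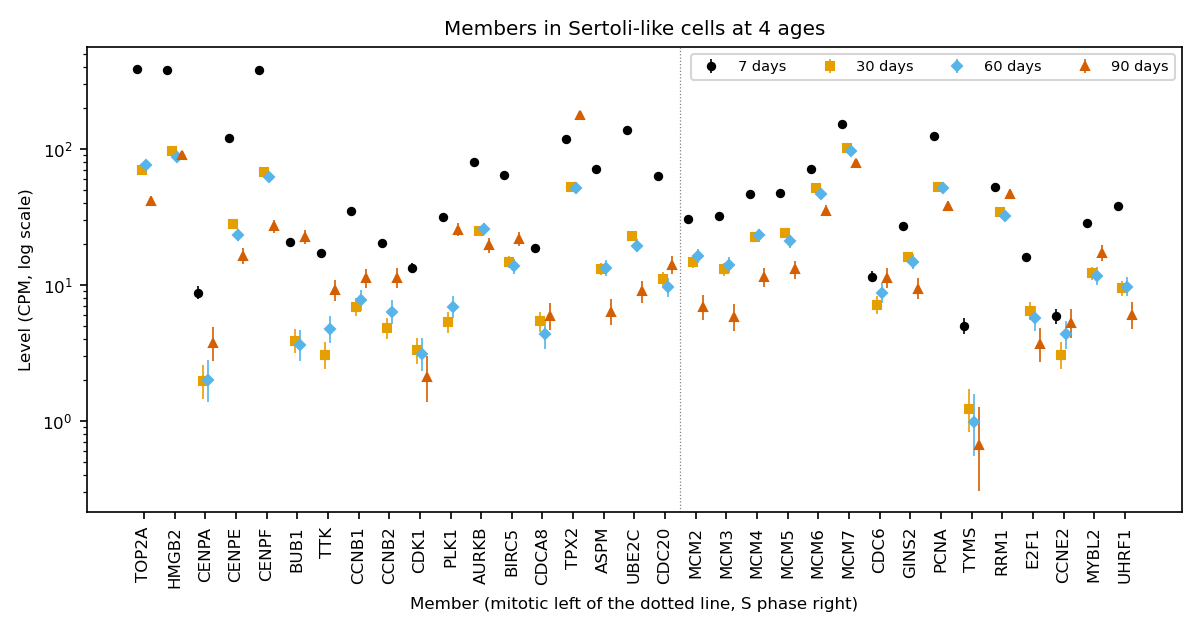
CPM of each member in Sertoli-like cells at 7, 30, 60 and 90 days. Nearly all members were highest at 7 days, and TPX2, BUB1 and PLK1 were higher at 90 days than at 30 or 60 days.

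Of the replication genes, the helicase subunits were lowest at 90 days. The MCM2 to MCM7 subunits form the replicative helicase. MCM3 was at 32.0 (30.3 to 33.8), 13.0 (11.7 to 14.5), 14.01 (12.2 to 15.9) and 5.83 (4.61 to 7.28) CPM. MCM2 was at 30.4, 14.7, 16.3 and 6.88 CPM, MCM4 at 46.6, 22.5, 23.1 and 11.4 CPM, and MCM5 at 47.2, 24.1, 21.0 and 13.0 CPM. MCM6 (71.0, 51.2, 46.5 and 35.2 CPM) and MCM7 (151, 101, 96.3 and 79.1 CPM) kept more of their 7-day level, and MCM7 was not called. Of the other licensing and fork genes, CDC6, an MCM loader, was at 11.5, 7.18, 8.81 and 11.3 CPM and not called. GINS2, a helicase partner, was at 27.3, 15.9, 14.9 and 9.42 CPM and PCNA at 124, 52.6, 51.3 and 38.0 CPM. Both were called lower at 90 against 7 days.

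For nucleotide supply, TYMS, which makes thymidylate, was at 5.01, 1.22, 0.979 and 0.673 CPM and had the lowest S phase ratio, a log2 of −2.90 (−4.05 to −1.94), on few counts. RRM1, the large subunit of ribonucleotide reductase, was at 52.5, 34.5, 32.0 and 46.9 CPM and not called. Among the genes of S phase entry, the activator E2F1 was at 16.01, 6.47, 5.69 and 3.66 CPM. UHRF1, which carries DNA methylation through replication, was at 37.8, 9.51, 9.72 and 5.98 CPM. CCNE2, a cyclin of S phase entry, was at 5.91, 3.04, 4.34 and 5.23 CPM, and MYBL2, a factor that switches on mitotic genes, at 28.8, 12.2, 11.7 and 17.2 CPM. E2F1 and UHRF1 were called lower at 90 against 7 days, and CCNE2 and MYBL2 were not.

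A total of 9 members differed between 90 and 60 days by the call, against 22.0% of all genes higher and 10.6% lower. BUB1 (log2 2.64, 2.23 to 3.07), PLK1 (1.88, 1.57 to 2.20) and TPX2 (1.78, 1.66 to 1.89) were higher. CENPF, MCM3, MCM2, UBE2C, ASPM and MCM4 were lower, with log2 ratios of −1.21, −1.26, −1.25, −1.12, −1.08 and −1.02. Of the 3 genes located by identifier, BUB1B, a checkpoint kinase, was at 44.9, 9.98, 8.87 and 4.63 CPM in order of age. NUSAP1, a spindle protein, was at 239, 66.2, 79.3 and 54.2 CPM and CDT1, an MCM loader, at 15.3, 5.29, 5.93 and 4.71 CPM. All 3 were highest at 7 days, and BUB1B did not share the 90-day level of BUB1.

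The mitotic counts of the young Sertoli-like class sat in a small group of cells. Cluster 2, whose leading genes included UBE2C and CENPF, held 15.7% of the 7-day Sertoli-like cells and 87.1% of their mitotic counts. UBE2C and CENPF were not used to cluster. NUSAP1, at 952 CPM in cluster 2 at 7 days, was not left out, so the grouping was not free of division genes. At 30 days cluster 2 held 123 of 5572 cells (2.21%) and 54.7% of the counts. Its own summed mitotic level was 6703 CPM at 7 days and 8245 at 30 days. Outside it the level was 257 CPM (252 to 263) at 7 days and 158 (153 to 163) at 30 days.

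Members were found together in single Sertoli-like cells at 7, 30 and 60 days but hardly at 90 days. In the Sertoli-like class of a finer clustering, cells with a TPX2 UMI at 7 days held the other 16 mitotic members at 4290 CPM (4252 to 4328), and cells without one at 209 (204 to 215), a ratio of 20.5. The ratio was 7.98 at 30 days and 9.60 at 60 days. At 90 days 946 of 1358 cells (69.7%) had a TPX2 UMI, and the other mitotic members stood at 200 CPM (191 to 209) in them and 224 (206 to 242) in the rest, a ratio of 0.894. Cells with a UMI were deeper than the rest at every age, with medians of 9028.5 and 6228.5 UMIs at 90 days. For TOP2A the ratio was 17.6, 14.3, 15.6 and 1.17 in order of age, and for CENPF 20.3, 17.1, 18.6 and 1.26. TPX2, TOP2A and CENPF therefore marked cells rich in the other members at 7, 30 and 60 days, and at 90 days they did so by 1.26-fold at most. These ratios describe cells of 1 library each.

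Cells with many members at once were not seen at 90 days. With every cell thinned to 1000 UMIs, at least 5 different mitotic members were seen in 400 of 6171 Sertoli-like cells at 7 days (6.48%, Clopper-Pearson 5.88 to 7.13), 60 of 5572 at 30 days (1.08%, 0.823 to 1.38) and 30 of 2845 at 60 days (1.05%, 0.713 to 1.502). At 90 days it was 0 of 2012, which allows a share of up to 0.149% on a limit of 3 cells (0.183% by Clopper-Pearson). The median depths before thinning were 5507, 3679.5, 5423 and 5892 UMIs. In spermatid-like cells, which no longer divide, the share was 0.681% (0.186 to 1.74) at a median of 1976 UMIs, and in spermatocyte-like cells 8.64% (6.93 to 10.6) at 1751.

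The looser share, at least 2 different mitotic members, was higher at 90 than at 30 or 60 days. It was 15.4% (14.5 to 16.3), 3.16% (2.72 to 3.65), 3.73% (3.06 to 4.49) and 9.89% (8.62 to 11.3) in order of age, and without thinning 34.99%, 11.4%, 15.01% and 56.1%. At 90 days 654 of the 2012 Sertoli-like cells, with a median of 1456 UMIs, left the class in the finer clustering, where the share was 4.49%. In the remaining 1358 cells, with a median of 7988.5 UMIs, TOP2A was at 33.2, UBE2C at 7.43, BUB1 at 19.2, PLK1 at 21.4 and TPX2 at 180 (172 to 187) CPM. Spermatid-like cells passed the looser rule at 38.0% (34.0 to 42.1). No order is read from the looser share at 90 days.

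**Figure D3:**
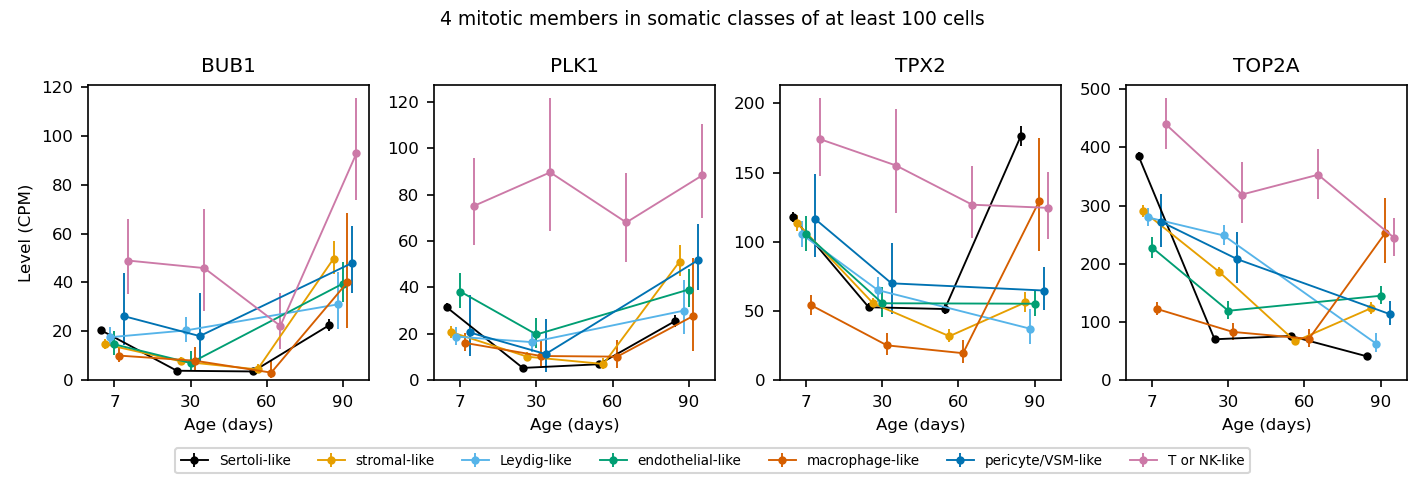
CPM of BUB1, PLK1, TPX2 and TOP2A at each age in somatic classes of at least 100 cells, with exact 95% Poisson intervals. In Sertoli-like cells TOP2A was highest at 7 days (385 CPM), while TPX2 was highest at 90 days (177 CPM). BUB1 was at 20.5 and 22.5 CPM there at 7 and 90 days.

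In the stromal class, the fibroblast-like cells between the tubules, the mitotic level was lowest at 60 days. In order of age the sum was 1073 CPM (1055 to 1092), 630 (616 to 644), 258 (245 to 272) and 593 (571 to 616). Between 30 and 7 days PLK1 and TPX2 (both log2 −1.03) were lower and no member higher, against 3.79% and 6.55% of all genes. Between 60 and 30 days 9 members were lower and none higher, against 3.05% and 9.12%, with CENPF the lowest at −1.89 (114 to 30.6 CPM). Between 90 and 60 days 10 of 32 were higher and none lower, against 18.1% and 5.34%, led by BUB1 at 3.48 (4.45 to 49.8 CPM) and PLK1 at 2.87 (7.02 to 51.2 CPM). Between 90 and 7 days 10 members were lower, against 6.26%, and BUB1 and PLK1 higher, against 28.6%. The lower count was 3 without doublet removal, 16 with TMM scaling and 4 as means over cells.

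A small cluster carried most of the counts here too. Cluster 16, whose leading genes included ANLN, KIF20A and ASPM, held 5.09% of the stromal cells and 78.8% of their mitotic counts at 7 days. At 30 days it held 2.92% and 75.2%. Outside it the level was 249 CPM (239 to 258) and 164 (157 to 172). UBE2C stood at 69.3, 49.2, 17.3 and 17.1 CPM in order of age in the class as a whole, while TOP2A stood at 291, 186, 66.9 and 124 CPM. At least 5 mitotic members per thinned cell were seen in 3.18% of stromal cells (2.61 to 3.82), 1.77% (1.45 to 2.14), 0.546% (0.273 to 0.976) and 0.311% (0.114 to 0.676) in order of age, the lowest share at the age when BUB1 and PLK1 were highest.

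In Leydig-like cells, the androgen-making cells, 11 of 32 measured members were lower at 90 than at 7 days and none was higher, against 6.66% and 23.2% of all genes. Without doublet removal 3 were lower, with stricter filters 18 and with TMM scaling 19, and the mitotic median was −1.35 as reported and −0.53 without doublet removal. TOP2A was at 280 CPM at 7 days, 249 at 30 days and 63.2 at 90 days. UBE2C was at 77.4, 51.1 and 12.4 CPM and ASPM at 49.97, 49.6 and 7.25 CPM. All 3 genes were lowest at 90 days among these ages. The other members called lower were CENPF, CENPE, HMGB2, TPX2, BIRC5, AURKB, E2F1 and CDK1, the last with a wide interval (log2 −2.75, −8.09 to −0.17). E2F1 was the only S phase gene among them (log2 −1.88, −4.20 to −0.26).

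In blood endothelial-like cells 10 of 33 were lower and 2 higher at 90 against 7 days, against 4.77% and 20.9%. UBE2C was at 127 CPM at 7 days, 60.7 at 30 days and 29.1 at 90 days (log2 −2.12). BUB1 (14.7 to 39.5 CPM) and CDC6 (4.04 to 9.57 CPM) were higher. The lower count was 6 without doublet removal, 5 as means over cells and 20 when cells were gated on markers. In pericyte-like cells 7 of 30 were lower and 3 higher, against 4.48% and 18.7%. UBE2C was the lowest there at −2.32, and CDC6, MYBL2 and PLK1 were the 3 higher. In T or NK-like cells 8 of 32 were lower and none higher, against 6.47% and 28.0%. There HMGB2 was at 1594, 1565, 1382 and 655 CPM in order of age and UBE2C at 206, 177, 154 and 58.9 CPM.

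In macrophage-like cells more members were higher than lower at 90 days, over 114 cells. All 114 lay in cluster 6, in which 11 macrophage markers were detected. The leading genes of cluster 6 included VPREB1 and XCR1 and no macrophage marker used for naming. The part of other immune cells in this class was not tested. The summed mitotic level of the class in order of age was 575 CPM (552 to 599), 410 (379 to 442), 287 (259 to 318) and 1004 (898 to 1119). Of 31 measured members 8 were higher and 2 lower at 90 against 7 days, against 13.9% and 5.34%. The higher count was 5 without doublet removal, 4 with TMM scaling and 13 as means over cells. CCNB2 had the largest ratio, from 6.73 to 49.3 CPM (log2 2.87, 1.89 to 3.81). TOP2A was at 123 CPM at 7 days and 253 at 90 days (log2 1.04, 0.69 to 1.38). CDCA8, BUB1, CCNB1, TPX2, CDC20 and ASPM were the other 6. The helicase subunit MCM2 and PCNA were the 2 lower. At least 5 mitotic members per thinned cell were seen in 3 of the 114 cells.

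**Figure D4:**
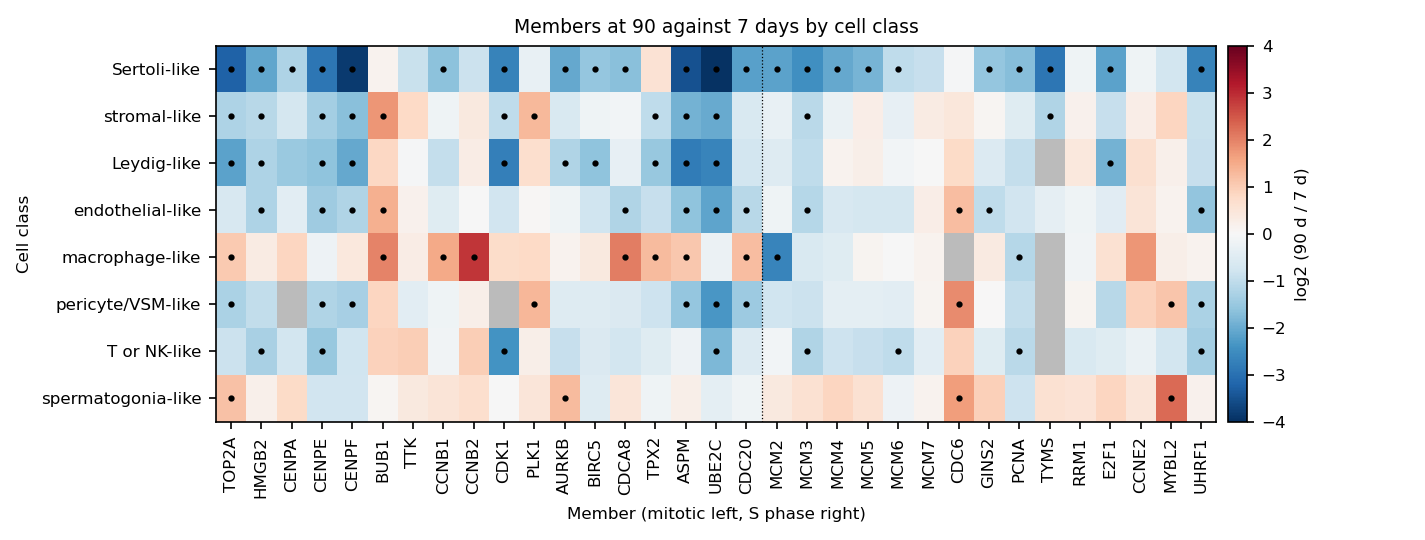
The log2 ratio of CPM at 90 against 7 days for each member in each class that held at least 100 cells at both ages. UBE2C was called lower in 6 of the 7 somatic classes, and BUB1 was called higher in 3.

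Across these 7 somatic classes, UBE2C and CENPE were called lower at 90 against 7 days in 6, CENPF, HMGB2 and ASPM in 5, and TOP2A, CDK1, MCM3 and UHRF1 in 4. ASPM and TOP2A were called higher in 1, the macrophage-like class. BUB1 was called higher in 3 and lower in none, and PLK1 and CDC6 were called higher in 2 and lower in none. RRM1, MCM7, CCNE2 and TTK were called in no class. The 7 comparisons draw on the same pair of libraries.

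RNA of spermatids was present in the somatic classes of the 90-day library. The summed level of 15 spermatid markers was 16.6 to 44.5 CPM in the 7 classes at 7 days, where 3 to 9 of the 15 had counts and PRM1, PRM2, ODF1, SUN5 and TSSK6 were at 0. At 90 days all 15 had counts in every one of these classes, and the sum was 1753 CPM in Sertoli-like, 2076 in Leydig-like, 3456 in stromal, 2819 in macrophage-like and 5358 in T or NK-like cells. Spermatid-like cells themselves held 35188 CPM. The 18 spermatocyte markers summed to 36.6 to 71.3 CPM at 7 days and 250 to 704 CPM at 90 days. BUB1 and PLK1 were high in the spermatid-like cells, at 240 (218 to 262) and 230 (209 to 252) CPM. The part of this RNA in the 90-day somatic values of BUB1, PLK1, CDC6 and the other members was not tested. TPX2 was at 82.8 CPM (70.4 to 96.6) in spermatid-like cells and at 226 (211 to 241) in spermatocyte-like cells. TPX2 was at 56.3 CPM in stromal cells and 177 in Sertoli-like cells at 90 days, and the part of germ cell RNA in either value was not tested.

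Most of the other mitosis genes listed were lower in Sertoli-like cells as well. At 30 against 7 days, 44 of 54 measured other mitosis genes and 21 of 50 other S phase genes were lower and none was higher, against 6.62% and 7.31% of all genes. At 90 against 7 days it was 37 lower and 2 higher of the mitosis genes, and 25 lower and 1 higher of the S phase genes, the flap nuclease FEN1 (1.35 to 5.01 CPM). HMMR, a spindle protein, went from 81.3 to 5.53 CPM, and DUT, which clears dUTP, from 181 to 39.2 CPM. KIF11, the motor that separates spindle poles, had a log2 ratio of −3.20, and LMNB1, a lamin, −3.03. DNMT1, the maintenance DNA methyltransferase, had −1.75 and ATAD2 −1.74. The 2 mitosis genes that were higher were PSRC1, a spindle protein, from 31.9 to 111 CPM, and DEPDC1B at a log2 of 1.26.

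Of 15 paralogs of the members, 6 were higher in Sertoli-like cells at 90 against 7 days and MYBL1 (−1.24) and E2F2 (−1.52) were lower, against 31.4% and 12.6% of all genes, so the higher count was near that background. PLK4, the kinase of centriole duplication, went from 69.1 to 241 CPM (log2 1.80), RRM2B, a reductase subunit used outside S phase, had a log2 ratio of 1.49, and PLK2 of 1.14. PLK4 was also higher in stromal cells (19.7 to 94.0 CPM) and in macrophage-like cells (log2 2.55). In macrophage-like cells 18 of 46 other mitosis genes were higher and none lower, against 13.9% and 5.34%, led by the spindle motor KIF15 at 2.57.

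Spermatogonia-like cells, germ cells named from spermatogonial markers, held both groups of members at all 4 ages in summed counts. Not all cells of the class carried the mitotic program, as its clusters show below. In order of age their summed mitotic level was 1324 CPM (1302 to 1347), 1098 (1079 to 1118), 1071 (1027 to 1116) and 1258 (1227 to 1289). The S phase level was 887 (868 to 906), 845 (828 to 862), 868 (829 to 909) and 1196 (1166 to 1227) CPM. No member was called between 30 and 7 days, against 2.21% of all genes higher and 1.95% lower, or between 60 and 30 days, against 4.63% and 2.01%. Between 90 and 60 days MYBL2 and AURKB were higher (both log2 1.01) and none lower, against 5.7% and 15.5%.

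At 90 against 7 days 4 of 33 members were higher in spermatogonia-like cells and none lower, against 11.5% and 24.5%, so the higher count was near the share over all genes. When cells were gated on markers without clusters, 7 members were lower and the mitotic median was −0.90 in place of 0.21. MYBL2 (chromosome 17, 46256245 to 46287929) was at 25.4 (22.3 to 28.7), 33.7 (30.4 to 37.3), 60.6 (50.6 to 72.04) and 122 (112 to 132) CPM in order of age. TOP2A was at 121 (114 to 128), 102 (96.5 to 108), 147 (131 to 164) and 273 (258 to 287) CPM. CDC6 was at 11.9, 14.6, 18.8 and 37.5 CPM and AURKB at 8.59, 8.14, 10.3 and 20.8 CPM. MYBL2 was higher at each later age, and the 90-day value of all 4 stood above the earlier ones. The cells of 7, 30 and 60 days lay in germ clusters 0, 1 and 2 and nearly all of those of 90 days in germ cluster 8, so age and cluster cannot be told apart here.

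Within the young spermatogonia-like class the clusters differed strongly, although the members counted here were left out of the clustering by symbol. NUSAP1, BUB1B and CDT1 were not left out. The mix of these clusters changed with age. Germ cluster 0 was 95 of 512 cells at 7 days, 170 of 953 at 30 days and 100 of 188 at 60 days. The class sum of each age thus mixed the clusters in different shares. Germ cluster 0 held the mitotic members at 2734 CPM (2671 to 2798), 2541 (2481 to 2603) and 1628 (1550 to 1709) at 7, 30 and 60 days. Germ cluster 1 held them at 1001 (971 to 1032), 936 (907 to 966) and 698 (640 to 759), and germ cluster 2 at 542 and 363 at 7 and 30 days. Germ cluster 1 had an uneven program. Its TOP2A was at 32.6, 25.2 and 19.2 CPM and its UBE2C at 13.9, 4.84 and 3.84 CPM, while in germ cluster 0 TOP2A was at 372, 375 and 295 CPM. CENPE was at 262, 235 and 200 CPM in germ cluster 1 and at 251, 199 and 150 CPM in germ cluster 0. CENPF was at 317, 308 and 184 CPM against 763, 685 and 323 CPM. Germ cluster 1 thus held CENPE at the level of germ cluster 0 or above, with TOP2A lower by more than 10-fold at each age. No cell of germ cluster 1 showed 5 or more mitotic members after thinning (0 of 285 at 7 days, which allows up to 1.05% on a limit of 3 cells). Germ cluster 2 held no such cell either, among 132 cells at 7 days and 289 at 30 days.

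**Figure D5:**
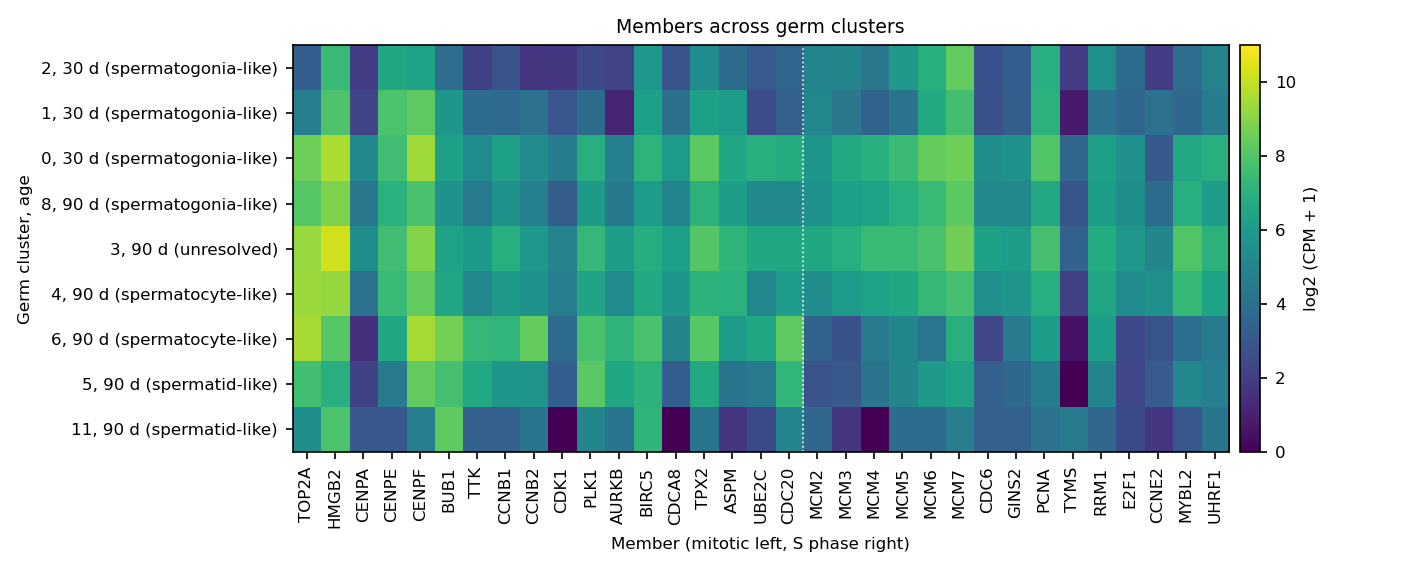
CPM of the members in the germ clusters, with the S phase and mitotic members apart. At 90 days the S phase sum was 1936 CPM in germ cluster 3, 1167 in germ cluster 4 and 357 in germ cluster 6, and the mitotic sum 2737, 2059 and 4023.

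At 90 days germ cells of later stages were present. Germ cluster 3, 1292 cells whose stage the markers did not settle, was above spermatogonia-like cells in 20 of 33 members and below in none, against 2.48% of all genes higher and 12.6% lower. Its median log2 ratio was 1.05, beside −0.09 over all genes. CDK1 (8.48 to 28.8 CPM, log2 1.76) and AURKB (1.71) had the largest ratios, and HMGB2 went from 467 to 1197 CPM. Both groups of members were higher, 14 of 18 mitotic and 6 of 15 S phase.

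In spermatocyte-like cells, which are in meiosis, most mitotic members were higher, and no S phase member was higher. Against spermatogonia-like cells of the same library 11 of 33 members were higher and 7 lower, against 20.6% and 19.6% of all genes. The lower count over all members was thus near the share over all genes. The mitotic members had 11 higher, 1 lower and a median log2 ratio of 1.29, and the S phase members 0 higher, 6 lower and a median of −0.89. CCNB2 (chromosome 1, 112907047 to 112942218) went from 26.0 to 221 CPM (log2 3.09, 2.82 to 3.37). CDC20 went from 36.3 to 211 CPM (2.54, 2.30 to 2.78) and BUB1 from 48.2 to 272 CPM (2.49, 2.29 to 2.70). CCNB2 is a partner of CDK1, and BUB1 and CDC20 act at the metaphase checkpoint. AURKB (2.26), TTK (2.22), PLK1 (1.45), BIRC5 (1.40), TOP2A (1.36), CENPF (1.34), CCNB1 (1.23) and CDK1 (1.10) were also higher.

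The members that were lower in spermatocyte-like cells were the helicase subunits MCM3 (73.5 to 28.5 CPM, log2 −1.37), MCM6 (−1.26), MCM2 (−1.20) and MCM5 (−1.10), with TYMS (−2.08), E2F1 (−1.27) and the centromere histone CENPA (−1.34). UBE2C, ASPM and TPX2 were not called. The number of calls depended on how the germ cells were chosen, with 5 to 21 members higher and 0 to 17 lower over 5 other ways. The median of the mitotic members was above that of the S phase members in each of these 5, from 0.50 to 1.90 for the mitotic and from −2.47 to 0.38 for the S phase members.

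Among the spermatocyte-like clusters, germ cluster 6 against germ cluster 4 had 11 members higher and 14 lower of 32, against 19.1% and 39.9%. The lower count over all members was thus near the share over all genes. The 11 higher were all mitotic, with CCNB2 from 48.5 to 339 CPM, CDC20 from 63.8 to 311 and BUB1 from 88.7 to 398. The 14 lower held 11 S phase members, with MCM3 (chromosome 7, 46084648 to 46104425) from 65.2 to 5.79 CPM, CDC6 from 45.7 to 4.01 and MYBL2 from 166 to 15.1. TOP2A was at 649 and 755 CPM. After thinning 78.7% of cells of germ cluster 6 held at least 2 mitotic members and 4.52% at least 2 S phase members. In germ cluster 3 the shares were 54.3% and 49.4%.

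Spermatid-like cells, which have finished meiosis, were lower than spermatocyte-like cells in 22 of 32 members and higher in none, against 32.1% and 18.6% of all genes. Without doublet removal 13 were lower, and with cycle genes kept for clustering 14 were lower and 2 higher. The 22 were 11 mitotic and 11 S phase members, with median log2 ratios of −1.39 and −1.55. The S phase median depended more on the processing. It was −0.64 without doublet removal, −0.39 with stricter filters, −0.04 with cycle genes kept and −2.34 at resolution 2. The mitotic median ran from −1.09 to −1.73 over the ways of choosing cells. CENPE (126 to 18.6 CPM, log2 −2.75), ASPM (−2.60), CDCA8 (−2.56) and CCNB2 (221 to 44.0 CPM, −2.33) had the lowest ratios. BUB1 was not called, at 272 and 240 CPM (log2 −0.18), nor was PLK1, at 169 and 230 CPM (0.44). The checkpoint and passenger genes TTK, AURKB and BIRC5 and the activator CDC20 (−0.72) were not called either. RNA of other germ cells in these cells was not tested: the 18 spermatocyte markers summed to 1619 CPM in spermatid-like cells and 2826 in spermatocyte-like cells.

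The other lists were counted in the same way, against the same 20.6% of all genes higher and 19.6% lower. Against spermatogonia-like cells, 16 of 53 other mitosis genes were higher in spermatocyte-like cells and LMNB1 (−1.76) was lower, and of 50 other S phase genes 6 were higher and 10 lower, the latter near the share over all genes. NEK2, a centrosome kinase, went from 62.0 to 374 CPM (log2 2.59), and PBK (1.89) and CDCA3 (1.67) followed. Of the S phase genes, the clamp loader subunit RFC4 had 2.06, DBF4, a replication activator, 1.27 and GMNN, the licensing inhibitor, 1.26, while TIMELESS (−1.79), UNG (−1.73) and RFC3 (−1.47) were the lowest of those named by rule. Among the paralogs, CCNA1, the cyclin of meiosis, went from 10.3 to 120 CPM (3.55), PLK4 from 88.8 to 367 (2.05), and CDK2 had 1.59. In spermatid-like against spermatocyte-like cells 33 of 53 other mitosis genes were lower and 3 higher, against 32.1% and 18.6%. The 3 were KIF15, from 223 to 562 CPM, CDCA2 (1.18) and the phosphatase CDC25B (1.47). CKS2 (−3.07) was lower, as were the paralogs CDK2 (−3.12) and MYBL1.

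Of 32 placed members, 10 overlap the span of another annotated gene, PLK1, CENPF, CDK1, AURKB and MCM7 among them. Strand was not compared, and whether reads were shared was not tested.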

How the data were processed

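The deposited matrices hold raw counts of UMIs per gene and barcode; per the file headers they come from Cell Ranger 5.0.1, and per the submitters' processing notes bcl2fastq, Cell Ranger and Scanpy 1.7.1 were used with build Sscrofa11.1. The members and gene lists were chosen with earlier results of these data known. Library totals were 96133720, 77992845, 45717373 and 64372068 counts at 7, 30, 60 and 90 days.

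Barcodes with at least 1000 UMIs, 500 genes and at most 15% of UMIs from 13 mitochondrial genes were kept, which left 13847, 17285, 11991 and 12675 in order of age. Scrublet's highest scores, up to 0.8% per 1000 barcodes, were removed as doublets (1761, 2679, 1615 and 1774 cells). Its automatic threshold would have removed 774, 1781, 3458 and 862 cells. Cells were clustered jointly without integration (2000 variable genes, 30 principal components, 15 neighbours, Leiden resolution 1), and germ cells again on their own. The members and other listed cycle genes were left out of the variable genes by symbol, which did not remove CDT1, BUB1B and NUSAP1. Clusters were named from 19 marker sets, with naming thresholds set after seeing the data. Tools were Scanpy 1.11.5, SciPy 1.17.1, igraph 0.11.9, pandas 2.3.3, NumPy 2.4.6 and scikit-learn 1.9.0 under Python 3.11.15, matplotlib 3.10.9 for the plots, and edgeR 4.0.16 (R 4.3.3) only for TMM scaling as an alternative.

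Counts were summed per class and library. Intervals are exact Poisson for levels, conditional binomial for ratios and Clopper-Pearson for shares. The script was tested on simulated counts. All members were to be named, and from the other lists up to 3 genes each way with the largest ratios and at least 50 CPM; genes outside this rule (FEN1, E2F2, MYBL1 in Sertoli-like cells, DEPDC1B, CDC25B and the 3 members located by identifier) were chosen after their values were seen. The co-occurrence of members in single cells was added after seeing the data. Coordinates are from RefSeq on the same build.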

Additional observations from a re-analysis of the deposited data

Results flagged for a closer look

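Some members were called in opposite directions in 2 classes at 90 against 7 days, and the difference between the classes was not tested. In macrophage-like cells TOP2A had a log2 ratio of 1.04 beside −3.23 in Sertoli-like cells, CCNB1 1.52 beside −1.64, CDCA8 2.04 beside −1.66, ASPM 1.08 beside −3.50 and CDC20 1.25 beside −2.17. The macrophage-like class held 114 cells at 90 days. In spermatogonia-like cells TOP2A had a log2 ratio of 1.17 and AURKB of 1.28, beside −3.23 and −2.04 in Sertoli-like cells.

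The 4543 cells of the 60-day library with no class entered no comparison and held the 17 mitotic members other than HMGB2 at 736 CPM (719 to 753), above the 334 CPM of the Sertoli-like cells of that library.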

How the results depend on the processing

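The lower counts of Sertoli-like cells at 90 against 7 days (23; 17 to 27 over the alternatives) and at 30 against 7 days (26; 24 to 28, added after seeing the data) stayed within 1.5 times. In the other counts, without doublet removal 3 Leydig-like (11 as reported), 3 stromal (10) and 6 endothelial-like (10) members were lower, 5 macrophage-like (8) higher, 12 lower in spermatocyte-like against spermatogonia-like cells (7) and 13 in spermatid-like against spermatocyte-like cells (22). TMM scaling gave 19 lower in Leydig-like and 16 in stromal cells and 4 higher in macrophage-like cells, and moved all log2 ratios by −0.53 in Sertoli-like, −0.58 in Leydig-like, −0.54 in stromal, −0.28 in endothelial-like, −0.48 in macrophage-like and 0.16 in spermatogonia-like cells. Stricter filters gave 18 in Leydig-like cells. Means over cells gave 4 stromal, 5 endothelial-like and 1 macrophage-like (2) lower and 13 macrophage-like higher. Gating cells on markers gave 20 endothelial-like, 0 macrophage-like and 7 spermatogonia-like (0) lower, and 0 lower with 21 higher in spermatocyte-like cells (7 and 11). Removal of a 10% library profile gave 1 macrophage-like lower. For spermatocyte-like cells, Scrublet's automatic threshold gave 4 lower, resolution 2 gave 0 lower and 5 higher, and cycle genes kept for clustering gave 17 lower and 6 higher. For spermatid-like cells, kept cycle genes gave 14 lower and 2 higher (0), and no minimum count gave 1 higher.

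The share of Sertoli-like cells with at least 2 mitotic members at 7 days (15.4%) was 14.3% at resolution 2, 19.8% thinned to 2000 UMIs and 11.3% with at least 3 members. At 30 days (3.16%) it was 3.78% without doublet removal, 5.31% and 1.97%, at 60 days (3.73%) 5.90% when gated, 4.71% and 2.25%. At 90 days (9.89%) it was 5.85% without doublet removal, 5.43% with the automatic threshold, 4.42% with stricter filters, 4.49% at resolution 2, 4.81% with cycle genes kept, 4.68% when gated, 17.2% thinned to 2000 and 2.04% with at least 3 members. The causes were not tested. Of 117 alternatives for counts 89 stayed within 1.5 times, and of 32 for shares 15 within counting error.

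No paired analysis was possible because each age is 1 library, and for the same reason no replicate was left out. Stricter filters were not run for spermatogonia-like cells, of which 1 was left at 90 days, and the myoid class had at least 100 cells at 90 days only. A level under 3 counts in a class was not detectable at this depth.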
